A study of Mus musculus with 6 samples.

Results

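Myosin heavy chains, the motor subunits of muscle and nonmuscle myosin, were examined in cultured satellite cells (SCs), the stem cells of skeletal muscle. The members were the rows of the deposited table named *Myh1*, *Myh2*, *Myh3*, *Myh4*, *Myh6*, *Myh7*, *Myh8*, *Myh9* and *Myh10*. Each name matched 1 row, which gave 9 genes of the 55416 in the table, of which 7 encode sarcomeric and 2 encode nonmuscle heavy chains. They were chosen by name and family and not by their values in a genotype, though with earlier results of these data known.

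The study asked what the loss of lactoferrin (*Ltf*), an iron-binding glycoprotein of milk and other secretions, does to SCs. WT mice were compared with a systemic *Ltf* knockout (*Ltf*-KO), in which part of the gene was deleted by CRISPR-Cas9 in C57/BL6N zygotes. The gene was thus disrupted in every tissue and not in SCs alone. Sca1-, CD11b-, CD34+ and α7-integrin+ cells were sorted from digested muscle of both genotypes and grown for 4 days on Matrigel in a medium with serum, chick embryo extract and basic fibroblast growth factor, with no other treatment. RNA was sequenced in bulk from 3 WT and 3 *Ltf*-KO libraries, and how many mice stood behind a library, their sex and whether the replicates were separate cultures were not given in the sources used here, so p-values measure only the spread between these libraries.

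Values were TPM, a measure of transcript abundance that corrects read numbers for gene length and brings each library to a common total, here 993650 to 994356. How many reads stand behind a value is therefore unknown. Between 12828 and 12951 genes reached 1 TPM in a library. *Ltf* itself did not exceed 0.12 TPM in a WT library or 0.03 TPM in an *Ltf*-KO library, so it does not check the genotype labels. The labelled cell type was checked on 10 markers of satellite cells and myoblasts, which summed to 1624 to 1668 TPM in WT and 1651 to 1665 TPM in *Ltf*-KO libraries. They were led by *Myod1*, the myogenic determination factor, at a mean of 779 TPM, while *Calcr*, a receptor of quiescent SCs, reached at most 0.07 TPM.

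A myosin heavy chain carries the ATPase motor head that walks on actin and a long coiled tail through which the molecules assemble into filaments. Vertebrate skeletal muscle changes its heavy chains in steps, from embryonic (*Myh3*) and perinatal (*Myh8*) forms in developing and regenerating fibers to the adult fast forms IIa (*Myh2*), IIx (*Myh1*) and IIb (*Myh4*) or the slow form (*Myh7*), which the heart shares along with *Myh6*. The nonmuscle heavy chains IIA (*Myh9*) and IIB (*Myh10*) work in the cortex, in stress fibers and in the dividing furrow of most cells, so in a myoblast culture the sarcomeric genes follow differentiation while the nonmuscle genes are present before it.

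The 5 developmental and fast genes lie in 1 cluster on chromosome 11, in the order *Myh3*, *Myh2*, *Myh1*, *Myh4*, *Myh8* by RefSeq. Their upstream sequences are shown because these genes neighbour each other and yet ranged from 159.04 to 0.02 TPM. All are on the plus strand and run from 250 to 51 bases before the RefSeq start, at GRCm38.p6 chr11:67078050-67078249 (*Myh3*), chr11:67276874-67277073 (*Myh8*), chr11:67199852-67200051 (*Myh1*), chr11:67170777-67170976 (*Myh2*) and chr11:67237562-67237761 (*Myh4*). Capitals mark the longest stretches, of 14 and 15 bases, that 4 and 3 of them have in common.
*Myh3*: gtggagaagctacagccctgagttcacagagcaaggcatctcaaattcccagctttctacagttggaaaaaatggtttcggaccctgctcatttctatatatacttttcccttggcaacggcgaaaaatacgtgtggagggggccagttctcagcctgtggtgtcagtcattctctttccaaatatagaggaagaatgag
*Myh8*: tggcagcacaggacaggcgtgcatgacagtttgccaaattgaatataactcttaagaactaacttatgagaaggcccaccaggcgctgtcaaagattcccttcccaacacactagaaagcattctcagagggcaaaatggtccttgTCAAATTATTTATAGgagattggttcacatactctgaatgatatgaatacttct
*Myh1*: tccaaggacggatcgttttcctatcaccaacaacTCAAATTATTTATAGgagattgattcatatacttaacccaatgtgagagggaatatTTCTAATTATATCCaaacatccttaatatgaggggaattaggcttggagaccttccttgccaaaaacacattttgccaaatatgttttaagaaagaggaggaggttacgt
*Myh2*: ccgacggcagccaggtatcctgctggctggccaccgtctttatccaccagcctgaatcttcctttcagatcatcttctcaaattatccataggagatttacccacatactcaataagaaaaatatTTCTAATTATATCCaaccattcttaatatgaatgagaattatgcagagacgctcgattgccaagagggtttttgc
*Myh4*: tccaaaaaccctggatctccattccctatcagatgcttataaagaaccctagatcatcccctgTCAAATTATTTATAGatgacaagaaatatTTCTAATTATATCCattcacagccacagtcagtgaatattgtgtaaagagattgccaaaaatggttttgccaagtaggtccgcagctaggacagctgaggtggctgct

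The search covered the 250 bases before the start of 32851 RefSeq promoters, on both strands. The stretch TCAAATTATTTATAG stood in *Myh8*, *Myh1* and *Myh4*, beginning 104, 216 and 187 bases before the start. It stood in no other promoter (3 promoters, 0.00913%). The stretch TTCTAATTATATCC stood in *Myh8*, *Myh1*, *Myh2* and *Myh4*, beginning 54, 160, 125 and 158 bases before the start, and likewise in no other promoter (4 promoters, 0.0122%). In *Myh8* it runs past the printed end and is not capitalised there. *Myh3* had neither. The first stretch contains TTATTTATAG, a sequence of the type bound by MEF2, a family of muscle transcription factors, which 37 promoters held (0.113%), *Myh8*, *Myh1* and *Myh4* among them. The E-box CANNTG, the kind of sequence that MyoD binds, was present in 7 of the 9 members, all but *Myh1* and *Myh2*, and in 66.2% of all promoters. The TATA box TATAAA was found on either strand in 12.4% of promoters and in *Myh3*, *Myh8*, *Myh1*, *Myh4* and *Myh9*. Some of these hits overlap the MEF2-type sequence, and on the strand of the gene it lay 29, 32 and 31 bases before the start of *Myh3*, *Myh1* and *Myh4*. These matches were chosen after the sequences were seen and describe letters only. Holding both shared stretches did not go with 1 level of RNA, since *Myh1* was at a mean of 30.5 TPM, *Myh8* at 5.50 TPM and *Myh4* at 0.167 TPM.

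Heavy chains are also alike within their coding sequence, which bears on how reads can be told apart. The longest exact stretches shared by 4 pairs of GENCODE M21 transcripts are shown because a read that falls inside them names both genes. On GRCm38, *Myh1* and *Myh2* share 268 bases of coding sequence in exons 23 to 24 (chr11:67213219-67213597 and chr11:67188318-67188696). *Myh7* and *Myh6* share 245 bases, in exons 32 to 33 of *Myh7* (chr14:54974947-54975347) and 30 to 31 of *Myh6* (chr14:54948327-54948725), both on the minus strand. *Myh9* and *Myh10* share 122 bases in exon 13 (chr15:77786539-77786660, minus strand, and chr11:68768199-68768320, plus strand). *Myh3* and *Myh1* share 94 bases in exon 37 (chr11:67100856-67100949 and chr11:67221571-67221664).
*Myh1* and *Myh2*: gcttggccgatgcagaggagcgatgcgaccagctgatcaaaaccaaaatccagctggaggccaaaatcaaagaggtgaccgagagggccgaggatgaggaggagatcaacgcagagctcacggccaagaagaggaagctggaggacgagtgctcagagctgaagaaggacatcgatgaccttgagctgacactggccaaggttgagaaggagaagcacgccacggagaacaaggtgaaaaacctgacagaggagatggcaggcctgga
*Myh7* and *Myh6*: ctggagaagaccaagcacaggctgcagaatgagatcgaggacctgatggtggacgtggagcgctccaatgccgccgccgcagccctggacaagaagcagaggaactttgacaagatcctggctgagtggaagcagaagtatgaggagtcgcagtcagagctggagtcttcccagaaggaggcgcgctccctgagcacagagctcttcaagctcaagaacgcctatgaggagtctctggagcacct
*Myh9* and *Myh10*: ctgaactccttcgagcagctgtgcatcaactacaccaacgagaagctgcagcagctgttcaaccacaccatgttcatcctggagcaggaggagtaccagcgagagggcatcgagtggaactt
*Myh3* and *Myh1*: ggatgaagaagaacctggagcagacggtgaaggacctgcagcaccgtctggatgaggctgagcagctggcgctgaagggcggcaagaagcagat

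Of all windows of 100 bases in its transcript, *Myh3* shared 1.15% with another of the 14 Myh genes searched, *Myh9* 0.314% and *Myh10* 0.299%. The share was 9.73% for *Myh1* and 9.17% for *Myh2*, of which 7.59% were windows common to these 2 genes, and 6.61% for *Myh8* and 3.85% for *Myh4*. *Myh7* and *Myh6* shared 11.2% and 11.4% of their windows, all with each other. Shorter windows, of 50 bases, were shared more often. Their share was 4.81% for *Myh3*, 26.7% for *Myh1*, 26.9% for *Myh2*, 21.4% for *Myh8* and 18.9% for *Myh4*. It was 22.2% for *Myh7*, 22.6% for *Myh6*, 1.12% for *Myh9* and 0.943% for *Myh10*. How reads that match several genes were assigned and how long the reads were is not given in the sources used here. The levels of *Myh2*, *Myh4* and *Myh6*, each under 1 TPM beside a close relative with more RNA, are therefore uncertain. The level of *Myh8* has the same limit to a lesser degree, since it shares a stretch of 160 bases with *Myh1*, which had more RNA.

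*Myh3*, the embryonic heavy chain, was the leading sarcomeric gene. WT libraries held 108.5, 148.3 and 88.85 TPM, and *Ltf*-KO libraries 121.23, 99.34 and 159.04 TPM. The lowest library was WT replicate 3 and the highest *Ltf*-KO replicate 3, and the groups overlapped over most of their range. The WT mean was 115.2 ± 30.3 TPM and the *Ltf*-KO mean 126.5 ± 30.2 TPM (SD, n = 3 each). On the log2(TPM + 1) scale *Ltf*-KO minus WT was 0.14 (standard error 0.23, 95% interval -0.41 to 0.69, limma adjusted p = 0.999). This interval spans 0.753-fold to 1.61-fold of the quantity TPM + 1. Leaving out WT replicate 3 or *Ltf*-KO replicate 3 turned the difference to -0.030 and -0.038. In bulk samples, fewer cells of a type and less RNA per cell cannot be told apart, so the level says nothing of how many cells held embryonic myosin.

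*Myh8*, the perinatal heavy chain, was at 5.95, 6.18 and 3.12 TPM in WT and 5.18, 4.22 and 8.36 TPM in *Ltf*-KO libraries. Its lowest and highest libraries were those of *Myh3*, and the groups overlapped. The means were 5.08 ± 1.70 TPM and 5.92 ± 2.17 TPM (SD, n = 3 each), and the log2 difference was 0.18 (95% interval -0.51 to 0.88, limma adjusted p = 0.999). Without WT replicate 3 it was -0.074, and without *Ltf*-KO replicate 3 it was -0.055.

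*Myh1*, the IIx heavy chain, had the most RNA of the 3 adult fast genes. Its libraries were at 29.61, 33.53 and 19.56 TPM in WT and at 31.99, 28.45 and 40.01 TPM in *Ltf*-KO. WT replicate 3 was again lowest and *Ltf*-KO replicate 3 highest, while the other 4 libraries lay between 28.45 and 33.53 TPM. The means were 27.6 ± 7.21 TPM and 33.5 ± 5.92 TPM (SD, n = 3 each). The log2 difference of 0.29 had a standard error of 0.21 and a 95% interval of -0.22 to 0.80 (limma adjusted p = 0.999), and it stayed above 0 whichever library was left out (0.071 to 0.45), with the 0.071 without WT replicate 3.

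The other fast genes were close to the floor. *Myh2*, the IIa heavy chain, was at 0.09, 0.07 and 0.05 TPM in WT and 0.07, 0.10 and 0.02 TPM in *Ltf*-KO libraries. *Myh4*, the IIb heavy chain of the fastest fibers, was at 0.18, 0.11 and 0.26 TPM in WT and 0.15, 0.14 and 0.16 TPM in *Ltf*-KO libraries. Both genes overlapped between genotypes, and both were under the mean of 1 TPM that a gene needed to be tested.

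Of the slow and cardiac genes, *Myh7*, the slow heavy chain, was at 4.37, 3.82 and 3.18 TPM in WT and 3.13, 4.28 and 5.51 TPM in *Ltf*-KO libraries. *Ltf*-KO replicate 3 was highest, as for the genes above, but here *Ltf*-KO replicate 1 was lowest, by 0.05 TPM under WT replicate 3. The log2 difference was 0.13 (95% interval -0.32 to 0.58, limma adjusted p = 0.999) and became -0.029 without *Ltf*-KO replicate 3. *Myh6*, the cardiac alpha heavy chain, was listed at 0.33, 0 and 0.03 TPM in WT and at 0.12, 0.35 and 0.35 TPM in *Ltf*-KO libraries, and was not tested. With the filter on low values removed, the log2 differences of *Myh2*, *Myh4* and *Myh6* were -0.0095, -0.039 and 0.19 (limma adjusted p = 0.990, 0.948 and 0.946).

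*Myh9*, which encodes nonmuscle heavy chain IIA, had the highest level of all members. It was at 341.9, 349.18 and 347.2 TPM in WT and 343.04, 373.41 and 342.52 TPM in *Ltf*-KO libraries. Only *Ltf*-KO replicate 2 stood apart from the other 5 libraries, which lay within 8 TPM of each other. The means were 346.1 ± 3.76 TPM and 353.0 ± 17.7 TPM (SD, n = 3 each). The log2 difference was 0.027 (standard error 0.042, 95% interval -0.072 to 0.13, limma adjusted p = 0.999), and -0.014 without *Ltf*-KO replicate 2. Of the 6 tested members, its interval was the narrowest, from 0.951-fold to 1.09-fold of TPM + 1.

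*Myh10*, which encodes nonmuscle heavy chain IIB, was at 44.87, 41.45 and 42.7 TPM in WT and 47.09, 45.47 and 44.76 TPM in *Ltf*-KO libraries. The groups overlapped only by WT replicate 1, which lay above *Ltf*-KO replicate 3 by 0.11 TPM. The means were 43.0 ± 1.73 TPM and 45.8 ± 1.19 TPM (SD, n = 3 each), and the log2 difference was 0.088 (95% interval -0.025 to 0.20). Its limma p of 0.106 was the lowest of the members (adjusted p = 0.999), and with each library left out in turn the difference ranged from 0.063 to 0.12.

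**Figure D1:**
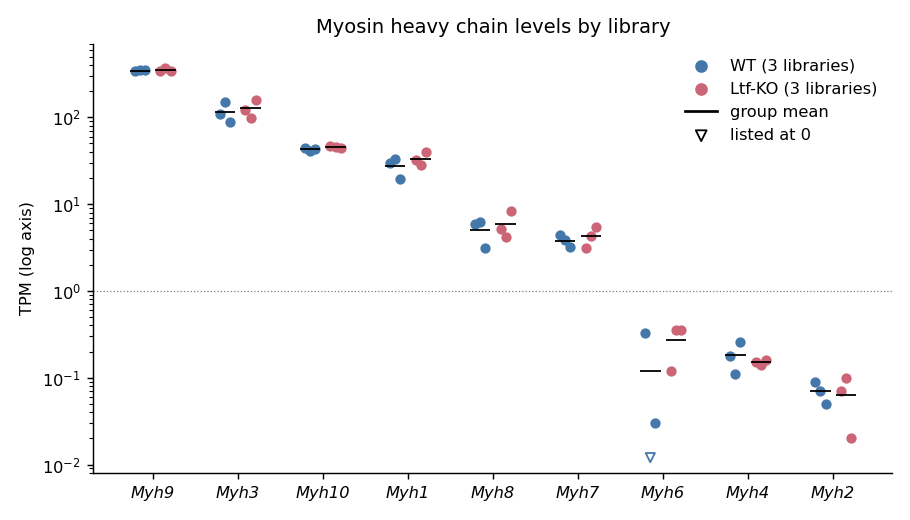
TPM of the 9 heavy chain genes on a log axis, with a point for each library (blue, WT; red, *Ltf*-KO), a bar for the mean of 3 libraries and a dotted line at 1 TPM. *Myh9*, *Myh3*, *Myh10* and *Myh1* lie above 19 TPM in every library, *Myh6*, *Myh4* and *Myh2* lie under 0.4 TPM, and the genotypes overlap for every gene. The triangle is *Myh6* in WT replicate 2, listed at 0.

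By mean TPM, which is per length, the order was *Myh9*, *Myh3*, *Myh10*, *Myh1*, *Myh8*, *Myh7*, *Myh6*, *Myh4* and *Myh2*. The ranges of *Myh9*, *Myh3*, *Myh10*, *Myh1* and *Myh8* did not overlap with each other, although *Myh10* at its lowest (41.45 TPM) was little above *Myh1* at its highest (40.01 TPM). *Myh8* and *Myh7* did not differ beyond their spread, with *Myh8* the higher in 4 of 6 libraries, and neither did *Myh6* and *Myh4*, where *Myh6* was higher in 3 of 6. *Myh4* was above *Myh2* in 6 of 6 libraries, though at levels where a value of 0.02 TPM is near the 2 decimals of the table. Among all 55416 genes, *Myh9* ranked 399 and *Myh3* ranked 1132 by mean TPM.

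No member passed the test between genotypes. All 6 tested members had a log2 difference above 0, with a median of 0.14, while 55.7% of the 12956 tested genes had one above 0 and the median of all was 0.011. With 1 library left out, as given above, *Myh3*, *Myh8*, *Myh7* and *Myh9* lost that direction, so the common sign does not hold against the spread between libraries. At an adjusted p under 0.05, 0 members and 0 of all genes (0%) were called by limma. At an unadjusted p under 0.05 these were 0 members and 490 genes (3.78%, with 2.01% higher and 1.78% lower in *Ltf*-KO), and groups without overlap were found for 0 members and 8.46% of the tested genes. The split by direction turns with the scaling, since 230 of 490 genes were lower in *Ltf*-KO as deposited, 305 of 508 after quantile normalization and 280 of 502 after median-of-ratios scaling, while the 6 members kept their direction under both. The upper bounds of the 95% intervals were 1.84-fold for *Myh8* and 1.15-fold for *Myh10*, both of the quantity TPM + 1.

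**Figure D2:**
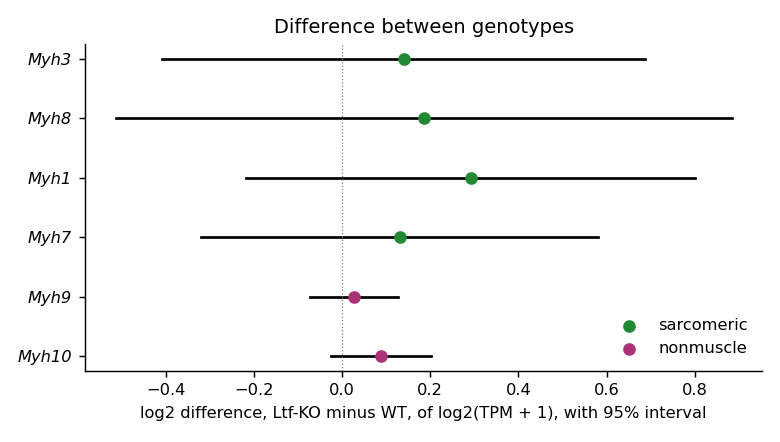
Difference between genotypes for the 6 tested members, as *Ltf*-KO minus WT on the log2(TPM + 1) scale (x axis), with points for the estimate and lines for the 95% interval. All 6 intervals include 0, and those of the nonmuscle genes *Myh9* and *Myh10* are much shorter than those of the sarcomeric genes.

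The sarcomeric genes together came to 149, 192 and 115 TPM in WT and to 162, 137 and 213 TPM in *Ltf*-KO libraries. Ordered by this sum, the genotypes alternated, with *Ltf*-KO replicate 3 at the top, then WT replicate 2, *Ltf*-KO replicate 1, WT replicate 1, *Ltf*-KO replicate 2 and WT replicate 3. Means were 152.0 ± 38.6 TPM and 170.7 ± 39.0 TPM (SD, n = 3 each), a ratio of 1.12 between *Ltf*-KO and WT that was within the spread. On the log2 scale this ratio was 0.17, and -0.025 without *Ltf*-KO replicate 3. *Myh9* and *Myh10* together came to 387, 391 and 389.9 TPM in WT and to 390.1, 419 and 387 TPM in *Ltf*-KO libraries (389.1 ± 2.05 and 398.8 ± 17.5 TPM, SD, n = 3 each). The sarcomeric share of all heavy chain TPM was therefore 27.8%, 33.0% and 22.8% in WT and 29.3%, 24.6% and 35.5% in *Ltf*-KO libraries, so that nonmuscle heavy chains exceeded sarcomeric ones in 6 of 6 libraries.

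The shares of *Myh3* and *Myh1* in the sarcomeric sum moved less than the sum did. *Myh3* made up 72.6% to 77.2% of it, *Myh1* 17.0% to 20.8%, *Myh8* 2.71% to 3.99% and *Myh7* 1.93% to 3.13%. *Myh2*, *Myh4* and *Myh6* each stayed at or under 0.256%. The embryonic gene was thus in front in every library, followed by the IIx gene, and no library showed another order of these 2. The ratio of *Myh3* to *Myh1* was 3.49 to 4.54, with a coefficient of variation of 10.6% over the 6 libraries against 23.0% for *Myh3* and 22.1% for *Myh1*. The ratio of *Myh3* to *Myh8* varied by 16.4% and that of *Myh3* to *Myh7* by 22.4%, about as much as *Myh3* and *Myh7* (21.9%) did alone. Of the nonmuscle sum *Myh10* made up 10.6% to 12.1%.

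**Figure D3:**
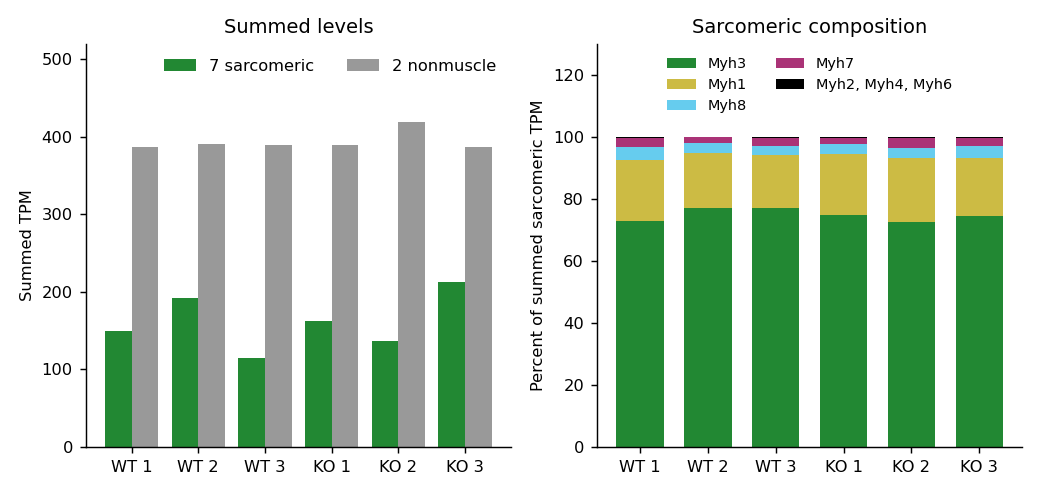
Left, summed TPM of the 7 sarcomeric (green) and 2 nonmuscle (grey) heavy chain genes in each library; right, percent of the sarcomeric sum contributed by each gene. The green bars run from 115 to 213 TPM and the grey bars from 387 to 419 TPM, while *Myh3* fills 72.6% to 77.2% of each stacked bar.

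The spread between libraries of 1 genotype set the sarcomeric genes apart from the nonmuscle genes. The within-group SD on the log2(TPM + 1) scale was 0.35 for *Myh3*, 0.44 for *Myh8*, 0.33 for *Myh1* and 0.27 for *Myh7*, against 0.051 for *Myh9*, 0.048 for *Myh10* and a median of 0.10 over all tested genes. The median was 0.055 for genes at 100 TPM or more. *Myh8* and *Myh7*, at means of 5.50 and 4.05 TPM, were not set against genes of a like level. *Myh3* varied more than 92.4% of the tested genes and more than 98.2% of the 1391 genes at a mean of 100 TPM or more. *Myh9* and *Myh10* varied more than 15.7% and 13.3% of the tested genes, and more than 45.4% and 40.5% of those at 100 TPM or more. The spread of *Myh9* was thus ordinary for abundant genes, while *Myh10*, at a mean of 44.4 TPM, is not itself among them.

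Across the 6 libraries *Myh3* and *Myh1* put the libraries in the same order (Spearman's rho 1, Pearson's r 0.90 of log2(TPM + 1)), and *Myh8* followed both (r = 0.91 with *Myh3* and 0.94 with *Myh1*). *Myh7* followed *Myh3* less closely (r = 0.51). *Myh3* and *Myh9* had r = -0.38, and the nonmuscle genes *Myh9* and *Myh10* had r = 0.052 with each other. These are descriptions over 6 points that share the scaling of TPM, and the heavy chains also share some sequence, as printed above.

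**Figure D4:**
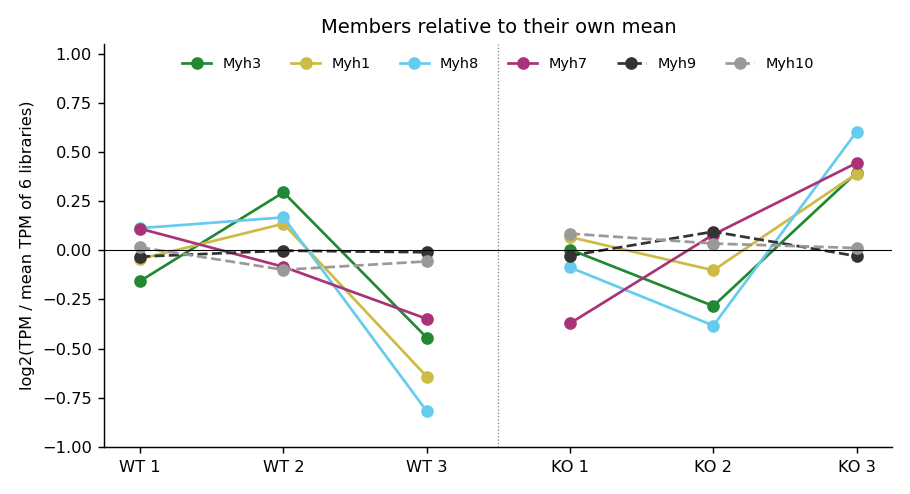
Level of each tested member in each library relative to its own mean, as log2(TPM / mean TPM of 6 libraries), with lines joining the replicates of a genotype only to guide the eye. *Myh3*, *Myh1* and *Myh8* lie lowest in WT replicate 3 and highest in *Ltf*-KO replicate 3, while *Myh9* and *Myh10* (dashed) stay close to 0 throughout.

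The genes most like *Myh3* over the 6 libraries, among 12934 ranked, were *Setd5* (r = 0.991), *Map1b* (0.991), *Casq1* (0.988), *Bub1b* (0.988) and *Med7* (0.982). *Casq1* encodes calsequestrin, the calcium store of fast muscle, *Map1b* a microtubule-associated protein and *Bub1b* a kinase of the spindle checkpoint. Over 6 points such values are not rare, and 249 genes (1.93%) had an r over 0.9 with *Myh3*. For the summed sarcomeric level they were *Casq1* (0.996), *Dbh* (0.995), *Popdc2* (0.992), *Kremen1* (0.989) and *Tnnc2* (0.987), the last the fast troponin C. For *Myh9* they were *Impdh2* (0.997), *Tmem120a* (0.988), *Gm15706* (0.988), *Armc6* (0.986) and *Myo7a* (0.978), all highest in *Ltf*-KO replicate 2.

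The light chains that bind the heavy chain neck were examined next. Of 6 sarcomeric light chain genes, 3 were tested and 0 passed, with a median log2 difference of 0.18. *Mylpf*, the fast regulatory light chain, was at a mean of 1041 TPM, *Myl1*, the fast essential light chain, at 241 TPM and *Myl4*, the embryonic and atrial essential light chain, at 226 TPM, with log2 differences of 0.079, 0.29 and 0.18 (limma adjusted p = 0.999 each). Their list summed to 1243 to 1741 TPM in WT and 1253 to 2047 TPM in *Ltf*-KO libraries. The atrial gene *Myl7* was at most at 0.18 TPM. Of 5 light chains of nonmuscle and smooth muscle myosin, 5 were tested, 4 were above 0 and 0 passed (median 0.086). They ranged from *Myl6b* at a mean of 45.0 TPM to *Myl6* at 1780 TPM, and the 4 lowest p-values belonged to *Myl12a*, *Myl9*, *Myl12b* and *Myl6b*, with log2 differences of 0.050, 0.16, 0.12 and 0.086.

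Partners of the sarcomeric thick filament, which anchor and space the myosin, were present without passing the test. Of 10 genes, 9 were tested, 8 were above 0 and 0 passed (median 0.15). *Mybph*, a myosin binding protein, was highest at a mean of 64.6 TPM and *Mybpc2*, the fast myosin binding protein C, lowest at 0.015 TPM. Among the lowest p-values were those of the giant spring protein *Ttn* (log2 difference 0.19), *Trim55* (0.16) and the M-band protein *Myom2* (0.27). Of 6 genes for the folding and assembly of myosin, 4 were above 0 and 0 passed (median 0.024). *Hsp90ab1*, a chaperone of every cell, was at a mean of 2275 TPM and *Hspb7* at 5.33 TPM, and the 4 with the lowest p were *Hspb7* (0.16), the myosin chaperone *Unc45a* (0.047), the methyltransferase *Smyd1* (-0.060) and *Hsp90ab1* (-0.0081).

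Regulators of nonmuscle myosin II include the kinases that phosphorylate its light chain. Of 13 genes, 12 were tested, 7 were above 0 and 0 passed (median 0.035). *S100a4*, a calcium-binding protein that binds the tail of heavy chain IIA, was highest at a mean of 5959 TPM, and *Mylk*, the myosin light chain kinase, lowest at 0.937 TPM. The 4 lowest p-values belonged to the phosphatase subunit *Ppp1r12a* (log2 difference 0.092), *S100a4* (-0.059), the GTPase *Rhoa* (0.036) and its kinase *Rock1* (0.078). The genotypes did not overlap for 3 of the 13, *Rhoa* (351 to 359.7 TPM in WT and 362 to 366 TPM in *Ltf*-KO), *Mylk* (0.53 to 0.95 and 0.99 to 1.24 TPM) and, lower in *Ltf*-KO, *S100a4* (5938 to 6356 and 5662 to 5923 TPM). Groups without overlap made up 8.46% of all tested genes. *Mylk* was under the filter and so outside that share, and the limma adjusted p of *Rhoa* and *S100a4* was 0.999.

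Differentiation genes were described as a list and by library. The 16 genes of the list, all tested, had 15 above 0 and 0 passed (median 0.11), and summed to 3109 to 4089 TPM in WT and 3194 to 4739 TPM in *Ltf*-KO libraries, highest in *Ltf*-KO replicate 3 and lowest in WT replicate 3. Gene by gene, 15 of the 16 were highest in *Ltf*-KO replicate 3, the exception being *Cdkn1c*, but only 6 were lowest in WT replicate 3, and 6 were lowest in *Ltf*-KO replicate 2. *Acta1*, skeletal actin, was highest at a mean of 977 TPM and *Myf6*, a late myogenic factor, lowest at 2.01 TPM. The lowest p-values were those of *Tnni1* (log2 difference 0.16), *Acta1* (0.15), *Cdkn1c* (-0.28) and *Tnnc1* (0.15), of which *Cdkn1c* encodes a cell cycle inhibitor and the troponins *Tnni1* and *Tnnc1* belong to slow muscle. Of 18 genes that regulate fiber type and the myosin genes, 17 were tested, 12 were above 0 and 0 passed (median 0.041). *Sox6*, which represses slow muscle genes, was at 0.67, 1.22 and 1.01 TPM in WT and 2.12, 1.09 and 3.86 TPM in *Ltf*-KO libraries, with a log2 difference of 0.70 (95% interval -0.064 to 1.46, limma adjusted p = 0.999). *Tead1* (0.058), *Nfix* (0.072) and *Vgll2* (-0.11) were the next by p, *Mef2a* was highest at a mean of 99.4 TPM and *Esrrg* lowest at 0.118 TPM.

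Heavy chain genes that are no members were low. *Myh7b* was at 0.42 to 1.43 TPM and *Myh11*, the smooth muscle heavy chain, at 0.17 to 0.62 TPM, *Myh15* was listed at 0, and none of the 5 reached a mean of 1 TPM. A long noncoding RNA gene of the cluster was low as well. *Myhas*, which follows *Myh1* and precedes *Myh4* in the RefSeq order, was at 0.18 to 0.70 TPM. Whether reads were counted by strand is not given in the sources used here, so reads from any stretch that *Myhas* and *Myh1* may share cannot be told apart. The microRNA genes within *Myh6*, *Myh7* and *Myh7b* (*Mir208a*, *Mir208b*, *Mir499*) were listed at 0 in 6 of 6 libraries. Whether the libraries could hold RNA as short as a microRNA is not given in the sources used here, so these zeros do not show absence.

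Markers of other cell types were set beside these values. The 6 endothelial markers summed to 9.96, 7.54 and 17.9 TPM in WT and 13.5, 15.5 and 7.45 TPM in *Ltf*-KO libraries, highest in WT replicate 3 and *Ltf*-KO replicate 2, where the sarcomeric sum was lowest, and lowest in *Ltf*-KO replicate 3 and WT replicate 2, where it was highest. The 5 Schwann cell markers, at 21.1 to 37.4 TPM in WT and 25.2 to 37.1 TPM in *Ltf*-KO, were also highest in WT replicate 3 and *Ltf*-KO replicate 2. Their low end differed, with WT replicate 1 lowest at 21.1 TPM, then *Ltf*-KO replicate 3 at 25.2 TPM, and WT replicate 2 at 28.3 TPM. The part of these cells in the spread of the heavy chains was not tested. The sum of the markers of satellite cells and myoblasts, led by *Myod1* and *Itga7*, stayed within 1624 to 1668 TPM, but single genes moved. Of these 10 genes, 3 were highest in *Ltf*-KO replicate 3 (*Itga7*, *Cdh15* and *Vcam1*) and 3 were lowest there (*Pax7*, *Myf5* and *Cd34*).

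Smooth muscle and pericyte markers summed to 963 to 1091 TPM in WT and 1032 to 1202 TPM in *Ltf*-KO, mostly from *Acta2* and *Des*, actin and desmin genes that myoblasts also express, and *Myh11* among them was at most at 0.62 TPM. The fibroblast list was at 102.8 to 108.2 TPM in WT and 102.2 to 133.8 TPM in *Ltf*-KO. Most of it was *Col3a1* (88.0 to 117.69 TPM), and all 5 tested genes of the list had a log2 difference above 0, with 0 passing. The immune list was at 5.76 to 13.0 TPM in WT and 3.59 to 5.85 TPM in *Ltf*-KO. It was highest in WT replicate 1, where *Lyz2* was at 7.22 TPM, against 2.31 and 0.38 TPM in the other WT libraries. Heart muscle markers came to 340.6 to 404.8 TPM and 350.4 to 421.2 TPM, nearly all from *Tnnt2* (339.6 to 419.6 TPM), which developing skeletal muscle also uses, while *Nkx2-5* reached at most 0.05 TPM. At an unadjusted p under 0.05, 1 gene of the 7 marker lists was called, *Tagln*, at an adjusted p of 0.999 by limma. Over all tested genes, the share at that threshold was 3.78%. No marker list had a gene at 0 in all 6 libraries.

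**Figure D5:**
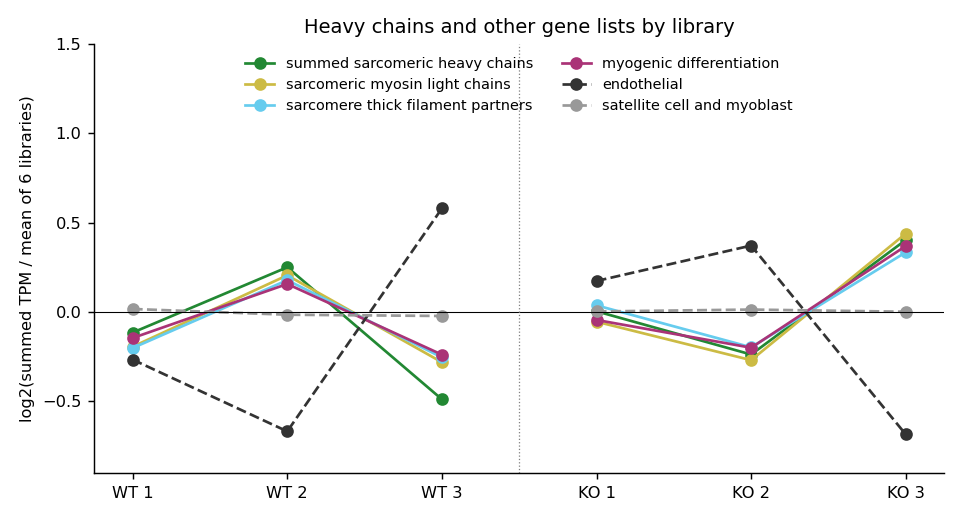
Summed TPM of the sarcomeric heavy chains and of 5 gene lists in each library relative to the mean of the 6 libraries (log2), with lines joining the replicates of a genotype only to guide the eye. Sarcomeric heavy chains, light chains, thick filament partners and differentiation genes lie highest in *Ltf*-KO replicate 3 and lowest in WT replicate 3, the endothelial list (black, dashed) runs the other way, and the satellite cell list (grey, dashed) stays near 0.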

How the data were processed

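RNA was sequenced from SCs of 3 WT and 3 *Ltf*-KO libraries, grouped by the genotype and number in their titles. The authors deposited TPM values with 2 decimals for 55416 genes. The build named in the submitters' processing notes is GRCm39, while aligner, counter, annotation, read length and strand are not given in the sources used here.

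limma 3.58.1 in R 4.3.3 (lmFit, eBayes with a trend) compared *Ltf*-KO with WT on log2(TPM + 1) for 12956 genes whose mean over the libraries reached 1 TPM, two-sided, with Benjamini-Hochberg adjustment over all of them. A fold change on this scale understates that of low genes. The fit was tested on simulated data. With TPM, depth is unknown and no count test was run. Sums and shares were taken on TPM.

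The members and gene lists were chosen with earlier results of these data known. Named are all members, *Ltf*, the 4 lowest p-values and the highest and lowest mean of each pathway list, and the 5 genes with the highest r to *Myh3*, *Myh9* and the sarcomeric sum. Others were named after their values were seen, and 1 gene that the rule names is not reported here.

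Promoters were from RefSeq (GRCm38.p6), where 9 of 9 members matched, and transcripts from GENCODE M21 (GRCm38). Proteins were not used here. Alternatives were another pseudocount, no filter, a higher filter, quantile and median-of-ratios scaling, a replicate block, 1 library left out at a time, and the sarcomeric sum without *Myh3*.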

Additional observations from a re-analysis of the deposited data

How the results depend on the processing

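Every value of the members and of their sums that was recomputed with a pseudocount of 0.1, without the filter, with a mean of at least 10 TPM, with quantile normalization or with median-of-ratios scaling kept its direction and its side of the threshold. *Myh7* and *Myh8* fall under 10 TPM and have no value there. The adjusted p of the members ran from 0.946 to 1.00 over all alternatives. Leaving out 1 library turned *Myh3* to -0.030 (WT replicate 3) or -0.038 (*Ltf*-KO replicate 3), *Myh8* to -0.074 or -0.055 by the same libraries, *Myh7* to -0.029 (*Ltf*-KO replicate 3) and *Myh9* to -0.014 (*Ltf*-KO replicate 2), all on the log2(TPM + 1) scale, with highest values of 0.34, 0.37, 0.30 and 0.048 when another library was left out. The log2 ratio of the sarcomeric sums ranged from -0.025 to 0.37 and that of the nonmuscle sums from -0.0015 to 0.056 with a library left out. Without *Myh3*, the sarcomeric member of highest mean level, the log2 ratio of the sarcomeric sums was 0.26 against 0.17, and that of the sarcomeric to nonmuscle ratio 0.24 against 0.14. With a library left out, 2 libraries are set against 3, and the cause was not tested.

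Over all genes, the count at an unadjusted p under 0.05 moved from 490 to 890 without the filter, where more genes were tested, and to 281 at a mean of at least 10 TPM, where fewer were. Of the 490, 230 were lower in *Ltf*-KO, against 305 of 508 with quantile normalization and 280 of 502 with median-of-ratios scaling. The count at an adjusted p under 0.05 was 0 and ranged from 0 to 7 with a library left out, none of them a member, with 7 without WT replicate 2, 6 without *Ltf*-KO replicate 1, 3 without *Ltf*-KO replicate 3 and 2 each without WT replicate 3 and *Ltf*-KO replicate 2. Same-numbered libraries of the 2 genotypes did not deviate together (r = -0.041, -0.058 and -0.088). These values gave no sign of pairing by number, but they cannot show that no pairing existed. With a replicate block the unadjusted limma p was under 0.05 for 380 genes and the adjusted p for 0. TPM holds no depth, so the reads behind the values under 1 TPM are unknown.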
